A study of Mus musculus with 12 samples.

Results

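The genes considered here are 10 genes of the TAM receptor and efferocytosis bridge system, named by symbol among the 56735 gene names in the count table. They were chosen with earlier results of these data known. The shares and medians of all genes given below are therefore a background and not a test of the list. They are the receptor tyrosine kinases *Axl*, *Mertk* and *Tyro3*, their ligands *Gas6* and *Pros1*, the bridging protein gene *Mfge8* with the integrin subunit genes *Itgav* and *Itgb5*, and the apoptotic cell receptor genes *Lrp1* and *Adgrb1*. Of these 10 genes, 9 passed the filter on low counts that left 13724 genes for testing, and *Tyro3* did not.

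RNA was sequenced in bulk from CD206+ subdural CNS-associated macrophages (sdCAMs), which line brain vessels and leptomeninges, sorted from mouse brain freed of choroid plexuses. All mice were young adults of the genotype Mrc1CreERT2/CreERT2:R26tdT/tdT and all received tamoxifen. Cells expressing *Mrc1* (which encodes CD206) at that time, and their progeny, can thereby carry the red reporter tdT. CD206+ cells that arose later from unlabelled cells do not carry it, and neither do cells that tamoxifen left unlabelled. The share of the latter among tdT- cells cannot be told here. At 4 weeks after tamoxifen the mice were given vehicle or the CSF-1 receptor inhibitor BLZ945 at 200 mg per kg, each over 7 days, and sorting followed 8 weeks after the last dose. The 3 groups of 4 libraries each are tdT+ cells of vehicle mice, tdT+ cells of BLZ945 mice and tdT- cells of BLZ945 mice. The tdT+ and tdT- libraries that share a mouse label (F1, F2, M1, M2) come from the same BLZ945 mouse, whereas the vehicle mice are other animals. Both *Mrc1* alleles carry the Cre driver in every mouse, there is no tdT- group from vehicle mice, and vehicle libraries are named "pre" and BLZ945 libraries "Post", so treatment and whatever those names stand for cannot be told apart. The reporter transcript had 0 counts in all 12 libraries, so the tdT labels could not be checked in the counts.

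Efferocytosis is the engulfment of apoptotic cells, which expose phosphatidylserine on their surface. GAS6 and protein S (encoded by *Pros1*) bind phosphatidylserine and bridge the dying cell to the TAM receptors AXL, MERTK and TYRO3 on the phagocyte, while MFG-E8 bridges it to the integrins αvβ3 and αvβ5. Macrophages and microglia use these receptors to clear dead cells and to restrain inflammatory signalling, and MERTK and AXL are the TAM receptors typical of brain macrophages.

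Library size and identity bear on the values below. Totals lay between 19969308 and 23395058 counts, and the detection floor of 3 counts was 2.60 to 3.16 as a normalised count (a count divided by the library's DESeq2 size factor). All 8 markers of CNS-associated macrophages, including *Mrc1*, *Pf4* and *Lyve1*, had counts in every group. Their summed normalised count was 1016340 to 1108720 in vehicle tdT+, 1181540 to 1342130 in BLZ945 tdT+ and 737057 to 977808 in tdT- libraries. *Apoe* alone averaged 767267, 924199 and 676333 in these groups, so it made up most of each sum. By DESeq2, 6 of 8 passed as lower in tdT- than in vehicle tdT+ cells, without *Apoe* and *Csf1r* (adjusted p = 0.327 and 0.222). In tdT- against BLZ945 tdT+ cells 8 of 8 were lower. All 6 microglial markers (*P2ry12*, *Tmem119*, *Sall1*, *Siglech*, *Sparc*, *Slc2a5*) were higher in tdT- cells than in either tdT+ group, with sums of 20955 to 33049, 41330 to 44151 and 99589 to 236926 in the same order, the last being the tdT- library of mouse M1. The tdT- library of mouse F2 held a neutrophil marker sum of 422704, against at most 69.4 in any other library, with the highest monocyte (51211) and red blood cell (36171) sums as well. The monocyte marker sum of the other 3 tdT- libraries was 3076 to 6650.0, against 901 to 3885 in tdT+ libraries. In bulk samples, fewer cells of a type and less RNA per cell cannot be told apart.

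Levels were first compared between the genes per length, as TPM, counts per deposited exon length scaled to the same total in every library. The order in vehicle tdT+ cells was led by *Gas6* at 1591 ± 30.8 TPM (SD, n = 4), which ranked 64th of all genes. *Itgb5* followed at 507 ± 76.5 TPM, then *Axl* at 306 ± 52.8 and *Pros1* at 297 ± 34.0, whose ranges overlapped, and *Mertk* at 114 ± 11.9. A lower tier of *Lrp1* (19.4 ± 1.5 TPM), *Itgav* (15.1 ± 9.38) and *Mfge8* (13.3 ± 4.07) had overlapping ranges. *Adgrb1* (0.229 ± 0.0966 TPM) and *Tyro3* (0.0235 ± 0.0346) stood at the bottom, each under 1 TPM on average in all 3 groups.

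The upper tiers kept this order in BLZ945 tdT+ cells except that *Pros1* (378 ± 65.8 TPM) had the higher mean of the overlapping pair with *Axl* (298 ± 73.3). In tdT- cells the ranges of *Itgb5* (969 ± 206 TPM) and *Gas6* (911 ± 149) overlapped, and *Itgb5* had the higher mean. The ratio of *Gas6* to *Pros1* in TPM was 5.41 ± 0.623 in vehicle tdT+, 5.13 ± 1.59 in BLZ945 tdT+ and 2.62 ± 0.716 in tdT- libraries, and the highest tdT- ratio (3.44) lay below the lowest in either tdT+ group (4.09 and 4.91). The ratio of *Axl* to *Mertk* was 2.68 ± 0.264, 1.76 ± 0.481 and 2.49 ± 1.0 in the same order, with ranges that overlapped between tdT- and both tdT+ groups but not between the 2 tdT+ groups (2.33 to 2.97 against 1.10 to 2.25). These ratios are descriptions and were not tested.

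**Figure D1:**
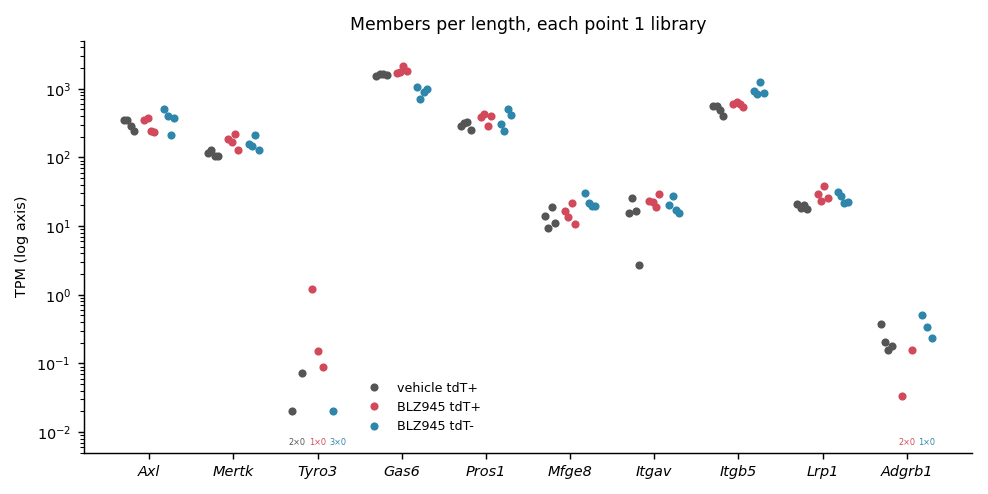
TPM of the 10 genes on a log axis, each point 1 library, coloured by group, with the number of libraries at 0 written at the bottom. *Gas6* and *Itgb5* sit highest, *Mfge8*, *Itgav* and *Lrp1* between 2.72 and 37.7 TPM, and *Tyro3* and *Adgrb1* near the floor.

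The question of whether tdT- cells differ from the tdT+ cells beside them was addressed with the 2 groups from the BLZ945 mice. The fit took all 12 libraries and had no term for the mouse. Here *Gas6* was lower and *Itgb5* was higher in tdT- cells, and neither *Mertk* nor *Axl* nor any other of the 9 genes tested passed an adjusted p of 0.05 (DESeq2 Wald test, Benjamini-Hochberg over all genes). That is 1 gene higher against 2.88% of all 13633 genes with an adjusted p, and 1 gene lower against 3.49%. By edgeR's quasi-likelihood test the same 2 genes passed, where 2.75% of genes did. None reached a shrunken log2 fold change of 1 in size, which with the adjusted p defines a DEG here, and 2.26% of genes were DEGs. The median unshrunken log2 fold change of the 9 genes was 0.10, against 0.0036 over all genes tested. The tdT- and BLZ945 tdT+ libraries did not overlap for *Gas6*, *Itgb5* and *Mfge8*, a property of 9.35% of genes.

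The promoters of the 4 genes that passed in any comparison are shown to set these genes in their sequence context, since they moved in opposite directions. Each run is the 250 bases before the RefSeq start on the gene's own strand, 5′ to 3′ (GRCm38.p6), whereas the gene positions given further on are those of the count table (GRCm39). Capitals mark the GC box GGGCGG, on either strand, the core bound by Sp1-type factors.
*Gas6*, chr8:13494536-13494785, minus strand: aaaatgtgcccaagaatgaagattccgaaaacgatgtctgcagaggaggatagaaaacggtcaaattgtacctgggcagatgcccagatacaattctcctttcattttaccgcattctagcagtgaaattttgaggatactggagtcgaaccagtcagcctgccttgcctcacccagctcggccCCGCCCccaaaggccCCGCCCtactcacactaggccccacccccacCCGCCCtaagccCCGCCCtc
*Itgb5*, chr16:33829415-33829664, plus strand: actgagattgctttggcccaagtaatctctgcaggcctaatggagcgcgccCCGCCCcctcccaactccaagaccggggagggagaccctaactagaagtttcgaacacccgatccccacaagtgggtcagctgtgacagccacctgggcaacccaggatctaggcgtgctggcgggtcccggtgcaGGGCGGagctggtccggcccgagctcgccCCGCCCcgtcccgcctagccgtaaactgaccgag
*Mertk*, chr2:128698665-128698914, plus strand: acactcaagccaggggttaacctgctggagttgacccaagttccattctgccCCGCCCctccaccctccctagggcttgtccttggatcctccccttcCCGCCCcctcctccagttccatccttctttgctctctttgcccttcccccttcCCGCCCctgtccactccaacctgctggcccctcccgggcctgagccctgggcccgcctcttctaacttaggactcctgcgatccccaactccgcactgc
*Lrp1*, chr10:127621149-127621398, minus strand: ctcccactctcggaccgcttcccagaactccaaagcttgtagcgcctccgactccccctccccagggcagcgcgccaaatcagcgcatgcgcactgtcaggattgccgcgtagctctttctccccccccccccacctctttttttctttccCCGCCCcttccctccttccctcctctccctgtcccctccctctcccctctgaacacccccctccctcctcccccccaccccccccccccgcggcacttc
*Gas6* held 4 GC boxes, all within 66 bases of the start, *Itgb5* and *Mertk* 3 each and *Lrp1* 1. Of the other genes with a window, *Pros1* held 5, *Mfge8* 4, *Tyro3* 3, *Axl* 1 and *Itgav* 0. GC boxes therefore did not set apart the genes that passed. The 4 windows shown were 54.8% to 67.2% GC, against a median of 52.4% over all windows. A GC box was present in 32.7% of all 32851 windows of this length. On either strand, none of the 4 windows held the letters CCAAT (present in 33.8% of all windows), the TATA box TATAAA (12.4%), the PU.1 core GAGGAA (23.3%), the AP-1 motif TGANTCA (6.75%) or the Maf core TGCTGAC (3.81%). The PU.1 core was present in the windows of *Axl*, *Mfge8* and *Itgav*. Of the 10 genes, 9 had a window, and *Adgrb1* had none.

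The ligand gene *Gas6* (chr8:13515374-13544490, minus strand, GRCm39) encodes a vitamin K-dependent protein that binds all 3 TAM receptors. Its normalised counts were 31039, 30253, 31384 and 30571 in vehicle tdT+ cells of mice F1, F2, M1 and M2. In BLZ945 tdT+ cells they were 33025, 34988, 39296 and 35588 in the same order of labels, and in tdT- cells 21458, 14900, 19606 and 21043. The 3 groups did not overlap, the vehicle libraries lay close together, and all 4 BLZ945 mice had less *Gas6* in tdT- than in tdT+ cells.

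The group means were 30812 ± 500, 35724 ± 2621 and 19252 ± 3008 normalised counts. Against BLZ945 tdT+ cells, *Gas6* in tdT- cells fell by 0.88 ± 0.11 on the log2 scale (SE, adjusted p = 2.68e-14 by DESeq2 and 0.000701 by edgeR), which is 1.86-fold by the means. Within single mice the log2 difference ranged from -1.23 (F2) to -0.62 (F1). Without the tdT- library of F2, which held the neutrophil transcripts, the log2 fold change was -0.78 (adjusted p = 5.08e-26), and without that of M1, which held the most microglial marker counts, it was -0.87 (adjusted p = 4.29e-12). The lower *Gas6* moved with the lower macrophage and higher microglial marker sums of the tdT- group, and their part in the difference was not tested. Among the tdT- libraries *Gas6* was lowest in F2, which also had the lowest macrophage marker sum (737057). The library with the highest microglial marker sum, M1 (236926), was not the lowest in *Gas6*.

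The second ligand gene, *Pros1* (chr16:62674670-62749709, plus strand), encodes protein S, a ligand of MERTK and TYRO3 and an anticoagulant cofactor. Its normalised counts were 9368, 9512, 10261 and 7775 in vehicle tdT+, 12113, 13736, 8409 and 12494 in BLZ945 tdT+ and 9994, 8185, 17605 and 14391 in tdT- libraries of F1, F2, M1 and M2. The groups overlapped throughout. *Pros1* was lower in tdT- cells of F1 and F2 and higher in those of M1 and M2, with log2 differences from -0.75 to 1.07 within mice. The log2 fold change was 0.06 ± 0.17 in tdT- against BLZ945 tdT+ cells (adjusted p = 0.934), and the difference of this change between the mice labelled M and F was 1.11 (adjusted p = 0.473, edgeR interaction test), so neither passed. The tdT- library of M1 had both the highest *Pros1* and the highest microglial marker sum.

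**Figure D2:**
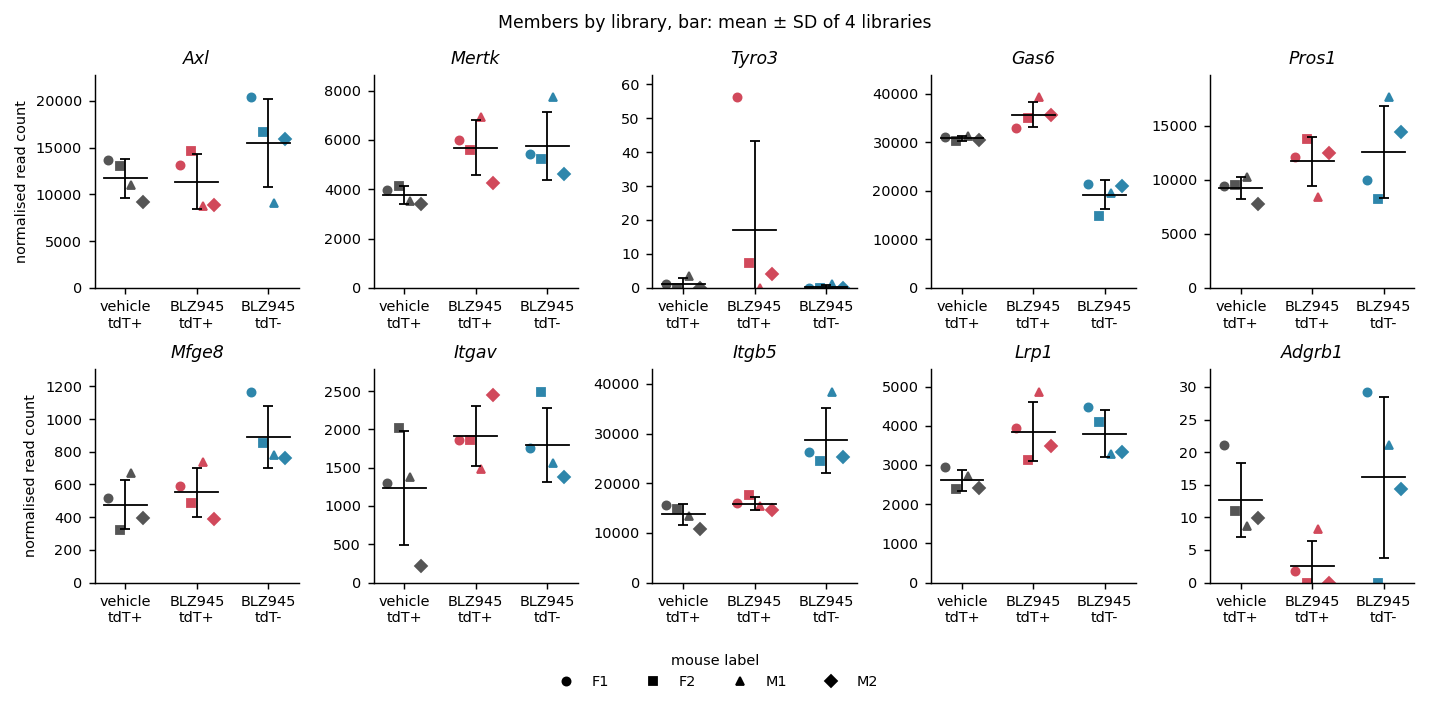
Normalised read counts of the 10 genes, a panel per gene, with 1 point per library shaped by mouse label and a bar for the mean ± SD of 4 libraries. *Gas6* separates the 3 groups, *Itgb5* in tdT- cells lies above both tdT+ groups with M1 far above the other 3, and the lower arm of the SD of *Tyro3* and *Adgrb1* reaches or passes 0 where single libraries carry the counts.

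The receptor gene *Mertk* (chr2:128540876-128644814, plus strand) encodes the TAM receptor of resident phagocytes. Its normalised counts were 3963, 4144, 3510 and 3380 in vehicle tdT+, 6006, 5596, 6915 and 4251 in BLZ945 tdT+ and 5443, 5222, 7727 and 4597 in tdT- libraries. Every BLZ945 library, tdT+ or tdT-, lay above every vehicle library, and the 2 BLZ945 groups overlapped. The difference of tdT- from BLZ945 tdT+ cells was 0.01 ± 0.16 on the log2 scale (adjusted p = 0.996), with 2 mice higher and 2 lower.

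*Axl* (chr7:25456698-25488130, minus strand) encodes the TAM receptor that macrophages raise under inflammatory stimuli and whose ligand is GAS6. Its normalised counts were 13682, 13057, 10953 and 9147 in vehicle tdT+, 13145, 14583, 8796 and 8886 in BLZ945 tdT+ and 20368, 16670, 9102 and 15893 in tdT- libraries. All 4 mice had more *Axl* in tdT- than in tdT+ cells, by 0.05 (M1) to 0.84 (M2) on the log2 scale, but the groups overlapped because of the tdT- library of M1. The log2 fold change was 0.33 ± 0.22 (adjusted p = 0.297, edgeR 0.477). It passed without the tdT- library of M1 (log2 fold change 0.55, adjusted p = 0.0198) and with the letter of the mouse label as a covariate (0.40, adjusted p = 0.0436), and did not pass with the mouse as a block (adjusted p = 0.0756).

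*Tyro3* (chr2:119628214-119648585, plus strand), the TAM receptor best known from neurons, was at or near 0. Its raw counts were 1, 0, 4 and 0 in vehicle tdT+, 61, 8, 0 and 4 in BLZ945 tdT+ and 0, 0, 1 and 0 in tdT- libraries. A single library, BLZ945 tdT+ of F1, carried most of them, and in that library the oligodendrocyte marker sum was also the highest of all 12 (8694 against at most 3604), the part of which was not tested. *Tyro3* was therefore not tested, and a difference was not detectable at this depth.

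The integrin subunit gene *Itgb5* (chr16:33650035-33769708, plus strand) encodes β5, which pairs with αv as a receptor of MFG-E8. Its normalised counts were 15692, 14890.0, 13404 and 10833 in vehicle tdT+, 15988, 17605, 15480.0 and 14545 in BLZ945 tdT+ and 26297, 24565, 38354 and 25324 in tdT- libraries. All 4 tdT- libraries lay above all 8 tdT+ libraries, whereas the 2 tdT+ groups overlapped. The means were 13705 ± 2136, 15905 ± 1281 and 28635 ± 6518 normalised counts.

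*Itgb5* in tdT- cells was 1.80-fold the mean of BLZ945 tdT+ cells (log2 fold change 0.80 ± 0.15, adjusted p = 1.38e-06, edgeR 0.00941). Within single mice the log2 difference ranged from 0.48 (F2) to 1.31 (M1). The 3 genes whose log2 normalised counts were most like those of *Itgb5* over the 12 libraries, among the 9591 genes averaging 100 or more normalised counts, were *Tmem119* (Pearson r = 0.983), *Siglech* (0.978) and *Selplg* (0.976), of which *Tmem119* and *Siglech* are in the microglial marker list. All points of this description share the 3 groups, and no test was made. The microglial marker sum and *Itgb5* were both highest in the tdT- library of M1, without which the log2 fold change was 0.64 (adjusted p = 1.92e-06). Without the tdT- library of F2 it was 0.87 (adjusted p = 5.06e-07), and the part of the microglial transcripts in the difference was not tested.

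**Figure D3:**
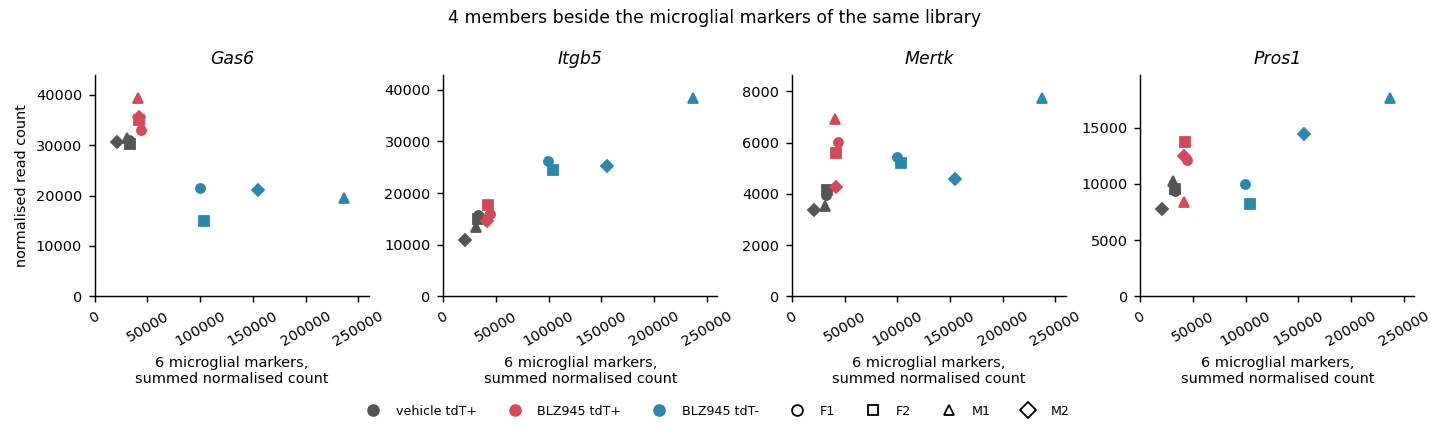
Normalised read counts of *Gas6*, *Itgb5*, *Mertk* and *Pros1* against the summed normalised count of 6 microglial markers in the same library, coloured by group and shaped by mouse label. The tdT- libraries (99589 to 236926 marker counts) lie to the right, with *Itgb5*, *Mertk* and *Pros1* highest in M1, while *Gas6* is between 14900 and 21458 in all 4.

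The αv subunit gene *Itgav* (chr2:83554741-83637260, plus strand) was at 1300.3, 2016, 1376 and 221 normalised counts in vehicle tdT+, 1866, 1865, 1489 and 2445 in BLZ945 tdT+ and 1759, 2487, 1561 and 1379 in tdT- libraries. The vehicle library of M2 stood far below the other 11, and the groups overlapped. The log2 fold change of tdT- against BLZ945 tdT+ cells was -0.03 ± 0.25 (adjusted p = 0.982). Of the 10744 exon bases of *Itgav*, 634 are shared with the antisense gene *Gm13684*, and reads there cannot be told apart without strand, but that gene had 69 counts in all 12 libraries against 20252 of *Itgav*.

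The bridge gene *Mfge8* (chr7:78783516-78798808, minus strand) was at 517, 324, 668 and 395 normalised counts in vehicle tdT+, 592, 486, 739 and 389 in BLZ945 tdT+ and 1165, 853, 780.5 and 763 in tdT- libraries. All tdT- values lay above all tdT+ values, although in M1 the tdT- library (780.5) was close to the tdT+ one (739). The log2 fold change was 0.46 ± 0.32 (adjusted p = 0.217, edgeR 0.301), so the difference did not pass.

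*Lrp1* (chr10:127374030-127457017, minus strand) encodes a large endocytic receptor that takes up calreticulin-bearing apoptotic cells. Its normalised counts were 2950.4, 2392, 2711 and 2407 in vehicle tdT+, 3945, 3129, 4861 and 3475 in BLZ945 tdT+ and 4491, 4104, 3290 and 3326 in tdT- libraries. As for *Mertk*, every BLZ945 library lay above every vehicle library and the 2 BLZ945 groups overlapped, with a log2 difference between them of -0.01 ± 0.15 (adjusted p = 0.994).

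*Adgrb1* (chr15:74388044-74461314, plus strand), which encodes the phosphatidylserine receptor BAI1, had raw counts of 21, 11, 10 and 11 in vehicle tdT+, 2, 0, 8 and 0 in BLZ945 tdT+ and 28, 0, 20 and 15 in tdT- libraries. These lie near the floor of 3 counts, and none of the 3 comparisons passed (adjusted p = 0.565 to 0.979).

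Cells that kept the label were then compared between BLZ945 and vehicle mice, where treatment cannot be told apart from the library names given above. The microglial marker sum was 20955 to 33049 in vehicle tdT+ and 41330 to 44151 in BLZ945 tdT+ libraries, and its part in the differences was not tested. None of the 9 genes passed by DESeq2 (3 had an unadjusted p under 0.05) or by edgeR (2 had one), where 0.484% of all genes passed as higher, 0.477% as lower, 0.169% were DEGs and 0.0656% passed by edgeR. *Mertk* was 1.52-fold and *Lrp1* 1.47-fold the vehicle mean (log2 fold changes 0.48 ± 0.20 and 0.45 ± 0.19, adjusted p = 0.0768 and 0.0753). *Gas6* was 1.16-fold (0.15 ± 0.10, adjusted p = 0.593) and *Itgb5* 1.16-fold (0.11 ± 0.13, adjusted p = 0.900). The groups did not overlap for *Mertk*, *Gas6* and *Lrp1*, which were higher, and for *Adgrb1*, which was lower, against 6.72% of all genes. The calls for *Mertk* and *Lrp1* depended on the fit, since both passed when only these 2 groups were fitted (adjusted p = 0.0107 and 0.0353). The median unshrunken log2 fold change was 0.21 over the 9 genes and 0.03 over all genes tested.

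Comparing tdT- with vehicle tdT+ cells, which shares libraries with both comparisons above, gave 4 genes that passed. *Mertk*, *Itgb5* and *Lrp1* were higher, against 3.29% of all genes, and *Gas6* was lower, against 3.51%. *Itgb5* was 2.09-fold the vehicle mean (log2 fold change 1.03 ± 0.15, adjusted p = 2.52e-10, edgeR 0.00200) and was the single DEG, where 2.57% of genes were DEGs. Without the tdT- library of M1 its log2 fold change was 0.86 (adjusted p = 4.71e-11), under the DEG limit. *Gas6* fell by 0.65 ± 0.11 on the log2 scale (adjusted p = 2.37e-08, edgeR 0.00273).

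*Mertk* rose 1.53-fold (log2 fold change 0.54 ± 0.19, adjusted p = 0.0161) and *Lrp1* 1.45-fold (0.47 ± 0.17, adjusted p = 0.0262). Neither passed by edgeR (adjusted p = 0.106 and 0.114), by which 2 of the 9 genes and 3.25% of all genes passed. *Mertk* did not pass without the tdT- library of M1 (adjusted p = 0.0953) or without the vehicle library of M1 or M2 (0.0690 and 0.0771), and *Lrp1* did not without the tdT- library of F1 or F2 (0.115 and 0.0798) or the vehicle library of F2, M1 or M2 (0.100, 0.0596 and 0.106). Since *Mertk* and *Lrp1* also missed the threshold against BLZ945 tdT+ cells, these data do not set tdT- cells apart from BLZ945 tdT+ cells for either gene. *Mfge8* (0.70 ± 0.34, adjusted p = 0.0562), *Pros1* (0.34 ± 0.20, 0.252), *Axl* (0.29 ± 0.21, 0.374) and *Itgav* (0.21 ± 0.31, 0.656) did not pass. *Mfge8* passed without the vehicle library of M1 (log2 fold change 0.93, adjusted p = 0.0148) and without the filter on low counts (0.74, 0.0249), *Pros1* without the tdT- library of F2 (0.52, 0.0302) and *Axl* without the tdT- library of M1 (0.51, 0.0396). *Itgav* did not pass with any library left out, with log2 fold changes from 0.11 (without the vehicle library of M2) to 0.39 (without that of F2). The groups did not overlap for 5 genes (*Mertk*, *Mfge8*, *Itgb5*, *Lrp1* and *Gas6*), against 9.7% of all genes, and the median unshrunken log2 fold change was 0.54 over the 9 genes against 0.03 over all genes tested.

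**Figure D4:**
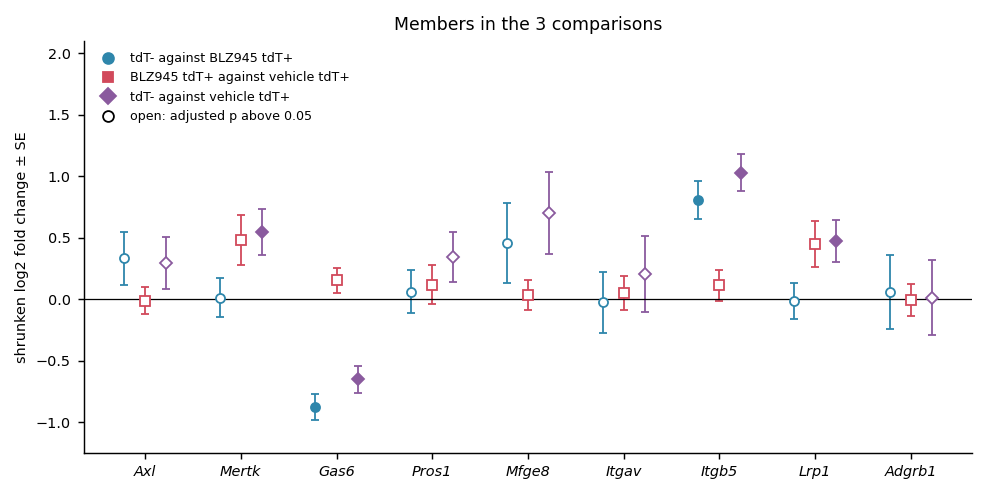
Shrunken log2 fold changes ± SE of the 9 genes tested in the 3 comparisons, filled where the adjusted p was at most 0.05. *Gas6* (-0.88 and -0.65) and *Itgb5* (0.80 and 1.03) are filled in both comparisons of tdT- cells, *Mertk* and *Lrp1* (0.54 and 0.47) in that with vehicle cells, and no gene is filled in the comparison of the 2 tdT+ groups.

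The wider efferocytosis pathway was described from a list of 82 further genes in 10 roles, of which 70 passed the filter on low counts. In tdT- against BLZ945 tdT+ cells 7 were higher and 4 lower, with a median unshrunken log2 fold change of 0.05 over the 70. In tdT- against vehicle tdT+ cells 8 were higher and 5 lower (median 0.15), and in BLZ945 tdT+ against vehicle tdT+ cells 1 was higher and 1 lower (median 0.02). By edgeR 7, 10 and 0 passed. The percentages of all genes given above are the background for these counts too, and this list was likewise chosen with earlier results known. The part of the lower macrophage and higher microglial marker sums of tdT- cells in these differences was not tested.

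Of 6 tested genes for other apoptotic cell receptors, 1 was higher and 2 were lower in tdT- cells in both comparisons. *Stab1*, which encodes the phosphatidylserine receptor stabilin-1 of perivascular and other resident macrophages, was at 41134 to 44869 normalised counts in vehicle tdT+, 46518 to 71576 in BLZ945 tdT+ and 16364 to 26268 in tdT- libraries, with no overlap. It fell by 1.39 ± 0.15 against BLZ945 tdT+ and by 0.99 ± 0.15 against vehicle tdT+ cells on the log2 scale (adjusted p = 1.23e-19 and 2.25e-10). *Cd36*, a scavenger receptor for oxidised lipid on dying cells, fell by 0.74 ± 0.26 and 1.37 ± 0.26 (adjusted p = 0.0122 and 5.13e-07), the former not by edgeR (0.117). *Havcr2*, which encodes TIM-3, was 1.13 ± 0.41 and 1.93 ± 0.39 higher (adjusted p = 0.00872 and 3.50e-06), of which the former did not pass with the mouse as a block (0.0580) or by edgeR (0.0874).

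Among the other integrins, *Itgb3*, which encodes the alternative αv partner β3, had 0 counts in all 4 BLZ945 tdT+ libraries. It was at 57.4, 125, 74.9 and 119 normalised counts in the tdT- libraries of F1, F2, M1 and M2 and at 112, 14.9, 131 and 0 in vehicle tdT+ libraries. With a floor of 3 counts per library, the tdT- mean was at least 32.0-fold higher than in BLZ945 tdT+ cells (adjusted p = 1.93e-05, edgeR 0.0427), and the lower level of BLZ945 tdT+ than vehicle tdT+ cells passed by DESeq2 (0.000486) but not by edgeR (0.270). *Itgb2*, the β2 chain of the complement receptors, was higher in tdT- than in BLZ945 tdT+ (0.45 ± 0.12, adjusted p = 0.00307, edgeR 0.0645) and vehicle cells (0.73 ± 0.13, 7.99e-08), and its partner *Itgam* than in vehicle cells alone (0.75 ± 0.17, 8.76e-05). *Itgb1* was higher in BLZ945 tdT+ than in vehicle tdT+ cells (0.40 ± 0.12, adjusted p = 0.00916, edgeR 0.309).

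Among other bridges and opsonins, *Lgals3*, which encodes the MERTK ligand galectin-3, was at 267 to 708 normalised counts in vehicle tdT+, 254 to 709.7 in BLZ945 tdT+ and 1053 to 3345 in tdT- libraries. It was higher in tdT- cells in both comparisons (log2 fold changes 2.20 ± 0.48 and 1.93 ± 0.49, adjusted p = 1.36e-05 and 0.000149). The tdT- values formed a lower and a higher pair. The lowest lay 0.022 of the group's range from the next, and the highest 0.030. The part of the neutrophil and monocyte transcripts of the tdT- library of F2 in this difference was not tested. *Calr* rose by 0.42 ± 0.13 against vehicle cells (adjusted p = 0.00877, edgeR 0.107), and the other 8 tested genes of this role, complement *C1qa*, *C1qb* and *C1qc* included, did not pass in any comparison.

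Find-me signal receptors held 2 higher and 1 lower of 4 tested genes in both comparisons of tdT- cells. *P2ry12*, a nucleotide receptor and also a microglial marker, was 2.99-fold and 3.97-fold the BLZ945 tdT+ and vehicle tdT+ means (adjusted p = 1.81e-06 and 3.25e-10), and *Cx3cr1*, the fractalkine receptor, 1.82-fold and 1.52-fold (3.00e-06 and 0.00388, the latter 0.0807 by edgeR). Microglial marker sums were higher in tdT- cells as well, and their part in the rise of both genes was not tested. *S1pr1*, a sphingosine-1-phosphate receptor, fell by 0.72 ± 0.20 and 0.91 ± 0.20 (adjusted p = 0.00205 and 4.03e-05).

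Of 14 genes for corpse degradation and the lipid response, *Abca1*, the cholesterol exporter induced after engulfment, fell by 0.61 ± 0.15 and 0.58 ± 0.15 in tdT- against BLZ945 tdT+ and vehicle tdT+ cells (adjusted p = 0.000320 and 0.000685). *Abcg1*, a second exporter, was 0.85 ± 0.35 higher than in BLZ945 tdT+ cells (adjusted p = 0.0222), which did not pass with the mouse as a block (0.0674) or by edgeR (0.101). *Rubcn*, needed for LC3-associated phagocytosis, fell by 0.82 ± 0.27 against vehicle cells (adjusted p = 0.00574).

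In the remaining roles few or no genes passed. *Tmem30a*, a chaperone of phosphatidylserine flippases, was 0.32 ± 0.12 higher in tdT- than in vehicle cells (adjusted p = 0.0499, edgeR 0.190), alone among 5 genes of phosphatidylserine exposure. None of 13 engulfment signalling genes (*Rac1* most abundant, 512 TPM on average over the 12 libraries), 5 genes for shedding and feedback of TAM receptors (*Adam10*, 128 TPM), 4 do-not-eat-me genes (*Sirpa*, 745 TPM) and 3 genes for γ-carboxylation of GAS6 and protein S (*Vkorc1*, 176 TPM) passed in any comparison by DESeq2 or edgeR.

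**Figure D5:**
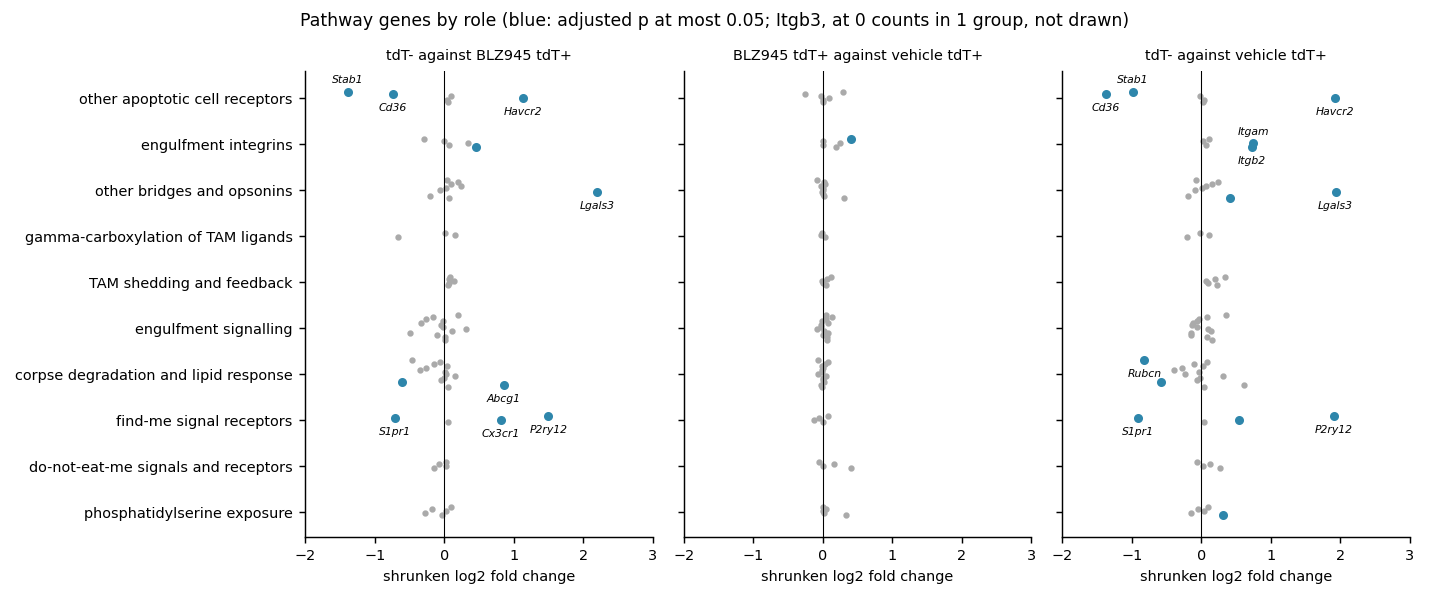
Shrunken log2 fold changes of the pathway genes tested, by role, in the 3 comparisons, with genes that passed in blue and those of at least 0.7 in size named. In both comparisons of tdT- cells blue points lie among apoptotic cell receptors, integrins, bridges and opsonins, corpse degradation and lipid response genes and find-me receptors, against vehicle tdT+ cells also for 1 gene of phosphatidylserine exposure, no engulfment signalling gene is blue, and *Itgb3*, at 0 counts in 1 group, is not drawn.

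Of the genes most like each of the other members over the 12 libraries, *Gas6* had *Clec4n* (Pearson r = 0.976), *Trf* (0.974) and *Hgsnat* (0.973). *Axl* had *Abr* (0.957), *Xrcc6* (0.924) and *Rapsn* (0.871), and *Mertk* had *Mrc2* (0.886), *Sh3bp2* (0.848) and *Rabl2* (0.842). *Pros1* had *Psmd3* (0.924), *Lgmn* (0.906) and *Brd8* (0.897), *Mfge8* had *Lrrc75a* (0.894), *Slamf7* (0.854) and *Arhgdia* (0.844), *Itgav* had *Osgin2* (0.954), *Pde3b* (0.953) and *Klhl15* (0.938), and *Lrp1* had *Fos* (0.900), *Zfp36* (0.872) and *Ipo13* (0.863). *Fos* and *Zfp36* are immediate early genes. These are descriptions over libraries that share 3 groups.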

How the data were processed

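Per the labels, RNA of sorted cells was amplified with a SMART-Seq kit, so read counts are not counts of separate molecules and floors cover counting error only. The deposited values are raw read counts per gene symbol. The authors used bcl2fastq 2.20 and STAR 2.7.11a (submitters' processing notes) and counted exons with featureCounts 2.0.6 on GENCODE M33 (GRCm39), ignoring strand and multi-mapping reads (file headers). The 12 count columns were matched by library name, leaving 0 over, and the vehicle column of M2, which bears the label M1, was matched by library number.

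Following the study's methods, genes under 10 counts in 75% or more of the libraries were dropped (13724 remained), and group was tested in 1 DESeq2 1.42.0 fit of all 12 libraries (R 4.3.3, two-sided Wald test, apeglm 1.24.0). Genes passed at an adjusted p (Benjamini-Hochberg) up to 0.05, and DEGs also had a shrunken log2 fold change of 1 or more in size. No adjusted p was given for 91 genes. edgeR 4.0.16 (quasi-likelihood, TMM) was the second tool and tested group by letter of the mouse label. Scripts were tested on simulated data. TPM came from counts and deposited lengths, and promoters from a RefSeq table (GRCm38.p6).

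Genes and lists were chosen with earlier results of these data known. All 10 members are named, with up to 4 passing pathway genes per role by size of change and the 3 genes most like each member by Pearson r of log2(normalised count + 1). The pairing of tdT+ and tdT- libraries comes from the shared mouse. Their deviations from group means correlated at -0.0046 to 0.035. Between tdT- and tdT+ libraries of different BLZ945 mice the correlations were -0.024 to 0.026, so these values do not show the pairing. The 18 replicate pairs differed beyond sampling noise. Alternatives were TMM factors, no filter, 2 groups only, the mouse block, the letter as covariate and each library left out.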

Additional observations from a re-analysis of the deposited data

Results flagged for a closer look

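In groups of 4 libraries, 89 groups of the genes named were examined for a library that stood apart by Dixon's criterion (gap to the nearest library over the range of the group), and 5 were found, where chance alone gives about 1 in 20. *Itgb5* in the tdT- library of mouse M1 was at 38354 normalised counts, against 26297 in the nearest of the other 3. *Tyro3* in the BLZ945 tdT+ library of F1 was at 56.1 normalised counts, against 7.37 in the nearest, and *Tyro3* in the tdT- library of M1 was at 1.05, a single read where the other 3 had none. *Rubcn* in the BLZ945 tdT+ library of M2 was at 1554 normalised counts, against 1092 in the nearest, and *S1pr1* in the tdT- library of M2 at 3289, against 2000 in the nearest. The difference of group effects between mice labelled M and F did not pass for any of the 9 genes tested, nor for any of the 13724 genes (edgeR interaction test, where an unadjusted p under 0.05 was reached by 984, 449 and 1103 genes in the 3 comparisons).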

How the results depend on the processing

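*Gas6* and *Itgb5* kept their direction and passed in both comparisons of tdT- cells under each of 14 alternatives, with log2 fold changes of -0.93 to -0.78 and 0.64 to 0.87 against BLZ945 tdT+ and -0.71 to -0.57 and 0.86 to 1.09 against vehicle tdT+ cells. Of 374 values of the members over all alternatives, 334 kept direction and side of the threshold, 10 no longer passed, 13 newly passed and 17 changed sign, none of these 17 for a gene that passed in the comparison concerned.

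In tdT- against BLZ945 tdT+ cells 2 members passed in the main fit and 2 to 3 with a library left out, and 11 pathway genes passed, 7 by edgeR and 8 to 14 with a library left out. With the mouse as a replicate block, 2 members and 16 pathway genes passed, and it changed no member's call here. *Mertk* turned to -0.0072 by edgeR and -0.0041 with TMM factors. With a library left out, *Mertk* spanned -0.13 to 0.080, *Pros1* -0.074 to 0.19, *Itgav* -0.087 to 0.012 and *Lrp1* -0.083 to 0.082.

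In BLZ945 tdT+ against vehicle tdT+ cells, where 0 members and 2 pathway genes passed, 1 member passed without the filter (*Lrp1*), 2 when these 2 groups alone were fitted and 2 with the replicate block (*Mertk*, *Lrp1*), and 0 to 1 with a library left out (*Lrp1* without BLZ945 tdT+ F2, *Mertk* without M2). Pathway genes numbered 0 by edgeR, 6 with 2 groups, 5 with the block and 1 to 3 with a library left out. The block joins different mice that share only a label, whose deviations correlated at 0.0040 to 0.048. *Axl* spanned -0.046 to 0.011 with a library left out.

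In tdT- against vehicle tdT+ cells 4 members passed, 2 by edgeR, 4 with the replicate block and 2 to 4 with a library left out (2 without vehicle M2). With a library left out, *Axl* spanned 0.17 to 0.51, *Pros1* 0.17 to 0.52, *Mfge8* 0.51 to 0.93 and *Itgav* 0.11 to 0.39, and *Adgrb1* turned to -0.0037 with the block and spanned -0.0016 to 0.032 with a library left out. The cause of these changes was not tested. TMM factors moved the *Gas6* mean of vehicle cells to 32039 normalised counts. With 4 libraries a group, the changes of *Mertk* and *Lrp1* from vehicle cells, near 0.5 on the log2 scale, sat close to the threshold. The size of change that passed differed between genes. *Tyro3* and *Adgrb1* were too low for a difference to be detectable.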
